A study of Homo sapiens with 12 samples.

Results

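The genes described here are the ligands and receptors of axon guidance: semaphorins with their plexin and neuropilin receptors, netrins and UNC5 receptors, slits and ROBO receptors, ephrins and Eph receptors, and the FLRT proteins. They were chosen by family, as 40 named genes (21 ligands and 19 receptors). Each gene was read on the probe set that names it alone and has the highest mean over the 12 arrays. This gave 39 genes of 19775 with a probe set of their own, since EPHB2 had none in the annotation used. After filters on signal and spread, 24 of them were tested (11 ligands and 13 receptors) and 15 were not.

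The cells were SaOS-2, an established line from a human osteosarcoma. The parental line, labelled as not transfected, was compared with Sa/CD99, that is, SaOS-2 stably transfected with the membrane protein CD99 by calcium phosphate and selected with neomycin. Both lines grew in IMDM with fetal bovine serum and were then moved to osteogenic medium, and total RNA was taken at days 0, 7 and 14. There were 2 arrays for each line and day: replicates 1 and 2 of SaOS-2, and 1 array each of the clones wt22 and wt36 for Sa/CD99. Each clone is 1 transfected line, so CD99, neomycin selection and the choice of clones cannot be told apart, and nothing in the labels says whether the parental replicates came from separate cultures. Values are log2 RMA signals, on which 1 unit is a 2-fold step.

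Guidance cues were first known as signals that attract or repel growing axons, and many other cells use them to steer migration, adhesion and cell shape. Secreted class 3 semaphorins act through neuropilins joined to plexins, membrane semaphorins bind plexins directly, slits act on ROBO receptors, netrins on DCC and UNC5 receptors, and ephrins on Eph receptors at cell contacts, where both partners can signal. In bone, semaphorins and the pair of EFNB2 and EPHB4 are known for signals between osteoblasts and osteoclasts.

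Parental replicates lay closer together than the clones (SD of the difference over tested probe sets 0.12 to 0.14 against 0.39 to 0.42). CD99 went against the labels on 1 of its 2 tested probe sets: 201028_s_at ran from 11.26 to 11.88 in SaOS-2 and from 6.67 to 8.88 on the arrays labelled Sa/CD99. The other, 201029_s_at, overlapped between the lines (12.29 to 12.66 and 12.32 to 12.74). Directions below are therefore those of the arrays as labelled. The study reports that it verified CD99 expression with real-time PCR in SaOS-2 and in both clones on each of these days. Those PCR values were not analysed here. Osteoblast genes such as RUNX2 (11.48 to 12.31) and COL1A1 (12.60 to 13.28) were high on all 12 arrays, while SPP1 lay between 3.71 and 4.41. ALPL, the alkaline phosphatase of bone, was lower in Sa/CD99 at day 0 (-0.82, SE 0.15, adjusted p = 0.0298) and rose there by day 14 (0.78, adjusted p = 0.00484). In SaOS-2 its day 14 change was 0.49 (adjusted p = 0.0342 in limma), under 1.5-fold. The difference between the lines in this change was not called (0.29, SE 0.21). By day 7, SP7 fell in SaOS-2 (-1.19, SE 0.28) and RUNX2 rose in Sa/CD99 (0.67, SE 0.11). The RUNX2 change in SaOS-2 was 0.58 (adjusted p = 0.00314 in limma), under 1.5-fold. The SP7 change in Sa/CD99 was -0.20 and not called. Neither difference between the lines in these changes was called (0.09, SE 0.15, for RUNX2 and 0.99, SE 0.40, for SP7). IBSP ranged from 3.26 to 10.67 over the arrays. The 6 neuronal and 5 endothelial markers stayed at or below the signal floor of the filter (a signal of 100, or 6.64 on the log2 scale) on all arrays, as did the 3 leukocyte markers that had a probe set. Of the 3 epithelial markers, CDH1 and KRT5 were below the floor, whereas EPCAM ran from 7.22 to 8.68 and fell in Sa/CD99 by day 14 (-0.62, SE 0.21, adjusted p = 0.041). The part of these marker changes in the results on guidance genes was not tested.

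Both receptors and ligands varied in how they stood to the floor. Above it on every array were the receptors PLXNA1, PLXNA2, PLXNB1, PLXNB2, PLXND1, NRP1, NRP2, UNC5B, ROBO1, EPHA2 and EPHB4. Among the ligands this held for SEMA4C (9.72 to 10.45), EFNB2 (7.64 to 10.05), NTN4 (8.10 to 9.16), SEMA3F, SEMA4B, SEMA6D, SEMA7A, SLIT3, EFNA1 and FLRT3. The receptor PLXNC1 exceeded the floor on 4 arrays and ROBO2 on 11. By contrast, 6 genes were at or below the floor on all 12 arrays: SEMA3B, SEMA3D, SEMA3E, SEMA6A, PLXDC2 and the netrin receptor UNC5C. Of the 15 genes not tested, 10 failed the filter on signal, those 6 with SEMA3A, SEMA5A, SLIT2 and EFNB1, and 5 varied too little, namely SEMA3F, UNC5B, ROBO1, EFNA1 and EPHB3. EFNA1, for example, stayed between 8.66 and 9.33 and ROBO1 between 7.99 and 8.70. Another probe set of UNC5B, 226899_at, was tested. It rose in Sa/CD99 by day 7 (0.69, SE 0.19, adjusted p = 0.0223), and its difference between the lines at day 0, -0.73, was not called (adjusted p = 0.112).

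The first question was which guidance genes differ between the arrays labelled Sa/CD99 and the parental arrays on the same day. Of the 24 tested, Sa/CD99 had 2 lower at day 0 and 3 lower at day 7, with 0 higher on both days, and at day 14 it had 4 lower and 1 higher. These are 8.33%, 12.5% and 20.8% of the guidance genes tested. Of all 6644 genes tested, 1.16% were called at day 0 (0.978% lower, 0.181% higher), 1.84% at day 7 (1.28% lower, 0.557% higher) and 1.66% at day 14 (1.48% lower, 0.181% higher). A gene was called at an adjusted p of at most 0.05 (limma, Benjamini-Hochberg over all 12894 tested probe sets) and a change of at least 1.5-fold. The median difference of the guidance genes was -0.09, -0.09 and -0.19, against 0.01, 0.02 and 0 over all genes. Some of these genes passed the signal filter only through the line in which they were high (NTNG1, FLRT2 and PLXDC1), so the counts describe the list and do not support a shift of it. The day 0 count became 0 when 1 of the SaOS-2 arrays of that day was left out, and 4 when 1 of the Sa/CD99 arrays of day 14 was. The day 14 count became 2 when 1 of the SaOS-2 arrays of that day was left out, and 3 when any other single SaOS-2 array was. Fitting the 4 arrays of each day by themselves called 1, 0 and 1 of the genes, namely FLRT2 at day 0 and NTNG1 at day 14.

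**Figure D1:**
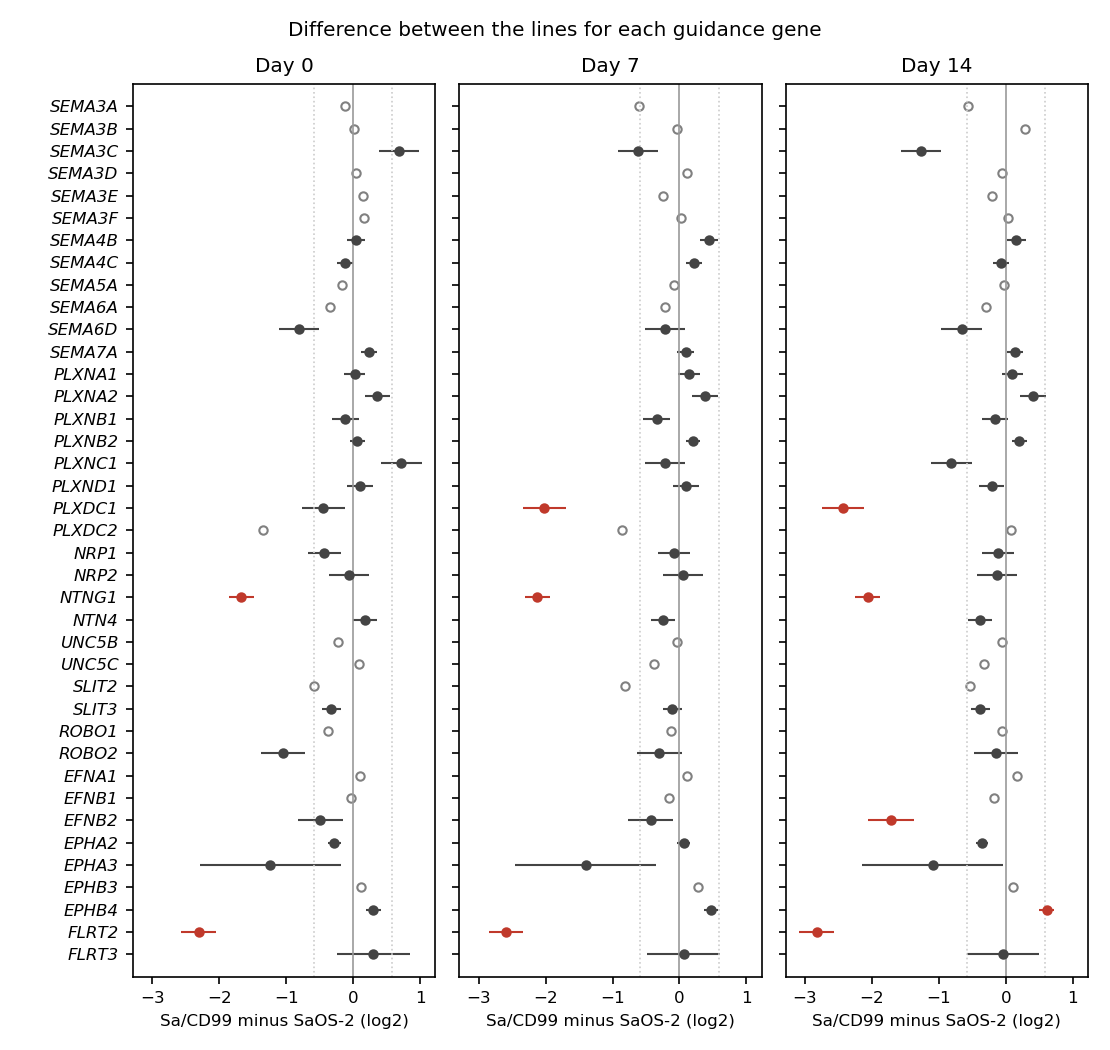
Difference between the lines (Sa/CD99 minus SaOS-2, log2) for the 39 guidance genes at days 0, 7 and 14, with bars of 1 SE for tested genes. Red points were called, dark points were tested and not called, open circles were not tested, and dotted lines mark 1.5-fold; NTNG1 and FLRT2 lie left of the lines on all 3 days.

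NTNG1 encodes netrin-G1, a netrin held at the membrane by a lipid anchor that does not act through DCC or UNC5 receptors. On probe set 236088_at, the parental arrays read 7.42 and 7.52 at day 0, 7.90 and 7.68 at day 7, and 7.29 and 7.17 at day 14. The clones wt22 and wt36 read 5.96 and 5.64, 5.98 and 5.35, and 5.16 and 5.19 on the same days. All 6 parental arrays were above the floor and all 6 clone arrays below it, with no overlap. The difference was -1.67 (SE 0.19, 3.18-fold lower, adjusted p = 0.00665) at day 0, -2.12 (adjusted p = 0.00133) at day 7 and -2.06 (adjusted p = 0.00153) at day 14 in limma. The day 0 call was lost without SaOS-2 day 0 replicate 1 (adjusted p = 0.0725) or replicate 2 (adjusted p = 0.0921). The other probe sets of NTNG1 lay below the floor in both lines (3.88 to 5.23) and were not tested, so the difference rests on 1 probe set.

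FLRT2, a leucine-rich repeat protein of the cell surface that binds UNC5 receptors and latrophilins, had the largest differences among the guidance genes tested. Its parental values on 204359_at were 6.84 and 6.87 at day 0, 7.94 and 7.99 at day 7, and 7.73 and 7.48 at day 14. Those of wt22 and wt36 were 4.57 and 4.51, 5.67 and 5.08, and 5.20 and 4.38. Here too every parental array was above the floor and every clone array below it. FLRT2 was 4.97-fold lower in Sa/CD99 at day 0 (-2.31, SE 0.26, adjusted p = 0.00549), 6.03-fold at day 7 (-2.59, adjusted p = 0.00221) and 7.04-fold at day 14 (-2.82, adjusted p = 0.00135). Leaving out SaOS-2 day 0 replicate 1 (adjusted p = 0.0725) or replicate 2 (adjusted p = 0.0779) ended its day 0 call. Its 2 other probe sets (3.25 to 5.61 over all arrays) were not tested. The second FLRT gene, FLRT3, overlapped between the lines at days 7 and 14 and was not called on any day (0.30, 0.06 and -0.04, SE 0.54).

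EFNB2 is the membrane ligand of EPHB4, and at day 14 the pair was called in opposite directions. EFNB2 read 9.73 and 9.77 in SaOS-2 at day 14, against 8.43 in wt22 and 7.64 in wt36. The difference was -1.71 (SE 0.34, 3.28-fold lower, adjusted p = 0.0423), while at day 0 (10.05 and 10.02 against 9.22 and 9.86) and day 7 (9.12 and 9.03 against 8.14 and 9.15) it was -0.49 and -0.43 and not called. On the second probe set of EFNB2 the day 14 difference was -1.53 and was not called. EPHB4 read 9.08 and 9.12 on the parental arrays of day 14 and 9.69 and 9.73 on those of the clones, a difference of 0.61 (SE 0.11, 1.52-fold higher, adjusted p = 0.0338). On its second probe set the difference was 0.50 and was not called (adjusted p = 0.065). Its values did not overlap between the lines at day 0 (9.22 and 9.12 against 9.36 and 9.58) or day 7 (8.81 and 8.74 against 9.13 and 9.36) either, with differences of 0.30 and 0.47 that were not called. Both day 14 calls were close to the threshold and were each lost in 10 of 16 other settings. Omitting either SaOS-2 day 14 array gave an adjusted p of 0.274 or 0.293 for EFNB2 and 0.274 or 0.24 for EPHB4, and omitting the wt36 day 14 array gave 0.0941 and 0.0672. Without any 1 of the SaOS-2 arrays of days 0 and 7 both also missed the threshold (0.0875 to 0.0909 for EFNB2, 0.0754 to 0.0822 for EPHB4), and without the wt22 day 14 array EPHB4 did (0.0807).

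PLXDC1, a membrane protein with a plexin-like domain that was first described in tumour endothelium, was called between the lines at days 7 and 14 and not at day 0. At day 0 its values on 219700_at were low in both lines, 5.00 and 4.60 in SaOS-2 and 4.07 and 4.64 in wt22 and wt36. They were 7.66 and 7.65 against 5.31 and 5.95 at day 7, and 8.36 and 8.36 against 5.48 and 6.39 at day 14. The difference was -0.45 (SE 0.32, adjusted p = 0.644) at day 0, -2.02 (4.07-fold lower, adjusted p = 0.0148) at day 7 and -2.43 (5.39-fold lower, adjusted p = 0.00814) at day 14. Each of the later calls was lost when 1 of the SaOS-2 arrays of that day was left out (adjusted p = 0.159 or 0.134 at day 7 and 0.0969 or 0.0962 at day 14). On a second probe set, 214081_at, the differences were 0.08, -1.44 and -1.93, and those of days 7 and 14 were called. The third, 240963_x_at, ran from 5.47 to 6.05 over all arrays and was not tested.

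**Figure D2:**
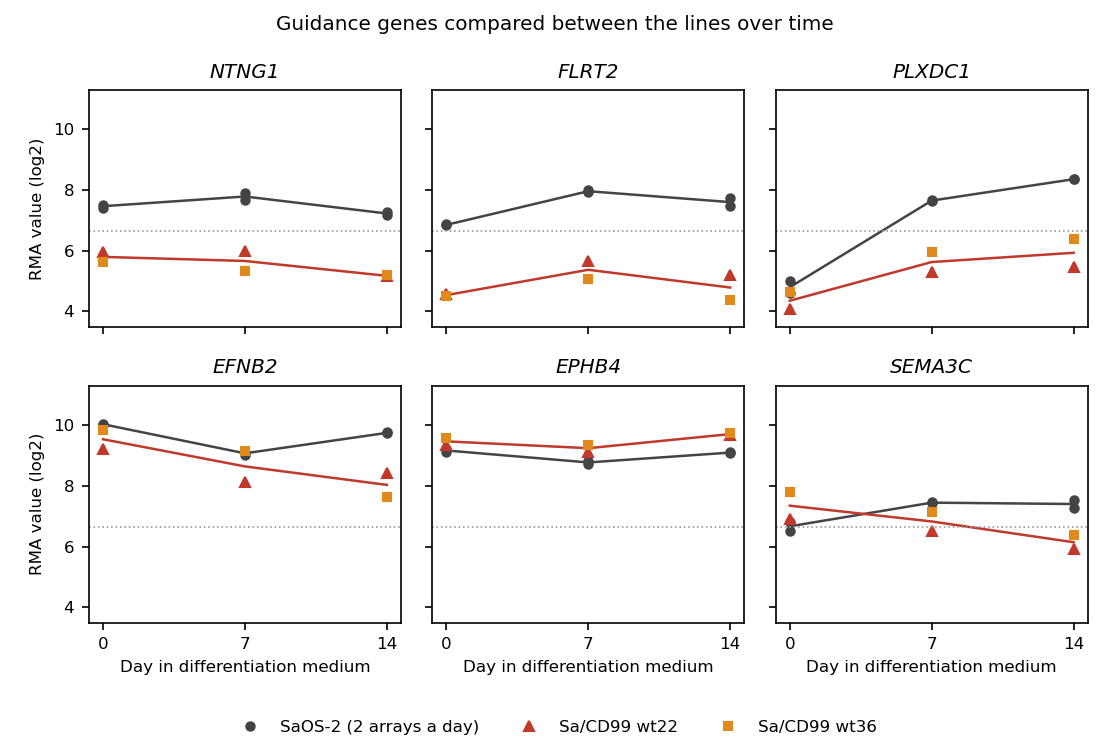
Log2 RMA value of 6 guidance genes on each of the 12 arrays, by day in differentiation medium. Circles are SaOS-2 arrays, triangles clone wt22 and squares clone wt36, lines join the group means, and the dotted line is the signal floor at 6.64; the parental values of NTNG1 and FLRT2 are above it and all clone values below it.

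The remaining genes did not pass the test between the lines on any day. Of the others, SEMA3C, a secreted semaphorin, differed by 0.68, -0.62 and -1.26 (SE 0.30), and EPHA3, an ephrin-A receptor, by -1.24, -1.40 and -1.09 with an SE of 1.05. ROBO2 read 7.11 and 7.34 in SaOS-2 at day 0 and 6.72 and 5.64 in wt22 and wt36, and did not pass either. SEMA4C, SEMA7A, PLXNA1, PLXNB1, PLXNB2 and PLXND1 were called in no comparison of lines, days or clones in this fit. With the tested probe sets quantile-normalized by themselves, SEMA4C was called in Sa/CD99 at day 14. Without the filters, when 0.405% of 19775 genes were lower at day 0 and 0.536% at day 7, 1 further guidance gene was lower in Sa/CD99 on each of these days. PLXDC2 differed by -1.35 (SE 0.21, adjusted p = 0.0195) at day 0, with parental values of 6.32 and 6.34 against 5.24 and 4.71, all under the floor. SLIT2, a secreted ligand of ROBO receptors, differed by -0.81 (SE 0.11, adjusted p = 0.00788) at day 7, with 6.88 and 6.78 against 6.07 and 5.98.

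Whether a gene's change with time differs between the lines was tested as the interaction of line and day. At an adjusted p of 0.05 limma called 0 of the 24 guidance genes at day 7 and 0 at day 14, and 0% of all genes. At an unadjusted p under 0.05 there were 3 and 4. The share of all genes at that threshold was not taken, so these counts cannot be read as an excess. The largest interactions of guidance genes were those of PLXDC1 (-1.58 at day 7 and -1.98 at day 14, SE 0.45) and SEMA3C (-1.94 at day 14, SE 0.42, adjusted p = 0.884). SEMA3C read 6.52 and 6.82, 7.47 and 7.43, then 7.26 and 7.55 in SaOS-2 at days 0, 7 and 14. In wt22 and wt36 it read 6.91 and 7.79, 6.53 and 7.13, then 5.91 and 6.38, so that both clones were lowest at day 14 and both parental replicates at day 0. Its other probe set ran from 4.35 to 5.27 and was not tested.

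A clone number marks the same line on each day. With the clones alone as a block, an alternative chosen after the data were seen, the day 14 interaction was called for SEMA3C (SE 0.20, adjusted p = 0.0101) and PLXDC1 (SE 0.19, adjusted p = 0.0101), and the day 7 interaction for PLXDC1 (adjusted p = 0.047). In that fit 0.0301% of all genes were called at day 7 and 0.0602% at day 14. With the replicate block over all arrays, both genes were called at day 14 (adjusted p = 0.0257 each, 0.0452% of all genes). The second PLXDC1 probe set was called at day 14 without any block (-2.01, SE 0.18, adjusted p = 0.0167). It read 4.74 and 5.00 at day 0 and 7.42 and 7.17 at day 14 in SaOS-2, and 4.88 and 5.03, then 5.31 and 5.41 in wt22 and wt36.

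The next question was which guidance genes change in differentiation medium within each line. In SaOS-2, 4 rose and 5 fell by day 7, 37.5% of those tested, where 20.4% of all genes were called (10.9% up, 9.44% down). By day 14, 4 rose and 1 fell, 20.8% against 14.7% of all genes (7.42% up, 7.31% down). In Sa/CD99, 5 rose and 3 fell by day 7, 33.3% against 15.8% (8.22% up, 7.59% down). By day 14, 4 rose and 5 fell, 37.5% against 19.7% (7.42% up, 12.3% down). The lines and days share arrays, since each day was set against the same day 0 arrays of its line. PLXDC1 and PLXNC1 passed the signal filter only through arrays of days 7 and 14, where they were high. These shares therefore describe the list and do not support a shift of it. The median change of the guidance genes lay between -0.01 and 0.13 in the 4 comparisons, and that of all genes between -0.04 and -0.02.

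**Figure D3:**
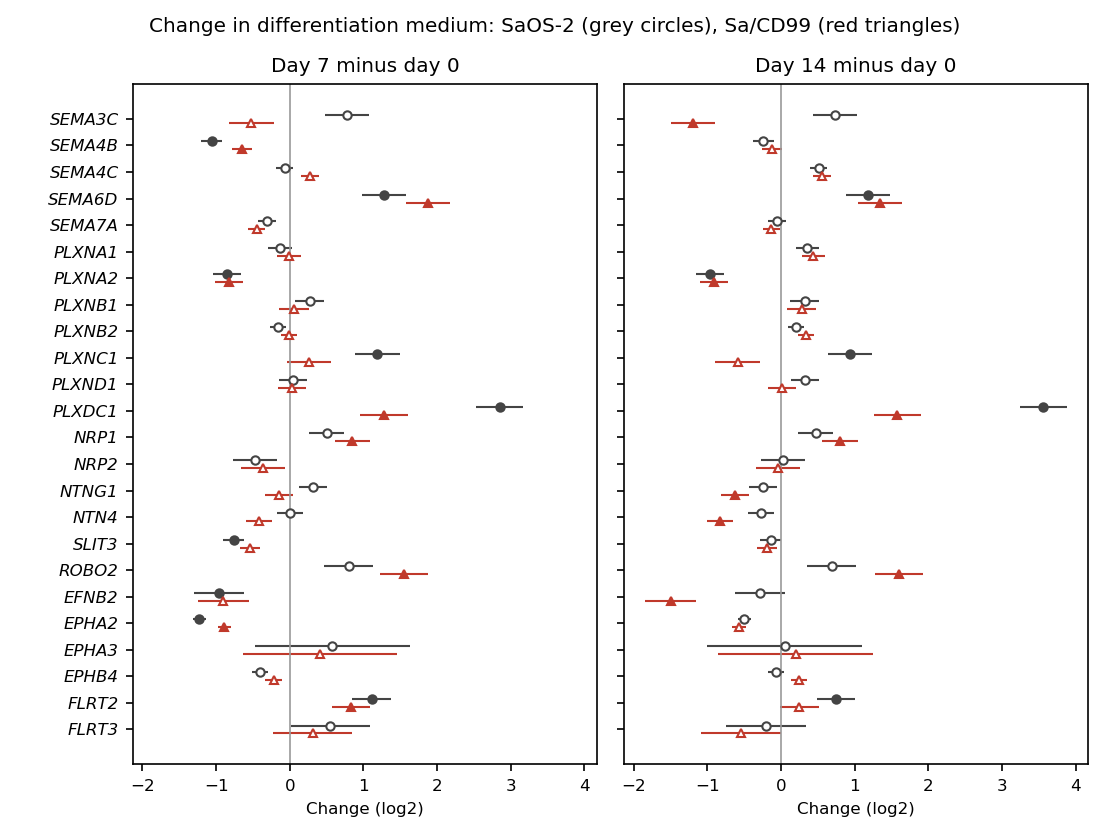
Change of the 24 tested guidance genes from day 0 to day 7 and to day 14 (log2, bars of 1 SE) in SaOS-2 (grey circles) and Sa/CD99 (red triangles). Filled symbols were called; PLXDC1 in SaOS-2 lies farthest right, at 2.85 and 3.56.

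Among the ligands, the membrane semaphorin SEMA6D rose in both lines on both days. It read 8.61 and 8.73 in SaOS-2 and 7.76 and 7.96 in wt22 and wt36 at day 0, and 9.93 and 9.97 against 9.73 and 9.73 at day 7. At day 14 it read 9.83 and 9.88 in SaOS-2, 8.59 in wt22 and 9.81 in wt36, and the groups of days 0 and 14 did not overlap in either line. The change was 1.28 and 1.18 in SaOS-2 (SE 0.30, adjusted p = 0.00969 and 0.018) and 1.88 and 1.34 in Sa/CD99 (adjusted p = 0.00194 and 0.0094). Both other tested probe sets of SEMA6D rose at day 7 in both lines, and 1 of them, 233801_s_at, was not called in Sa/CD99 at day 14 (0.97, SE 0.35, adjusted p = 0.0541). Its SaOS-2 calls were lost without SaOS-2 day 0 replicate 1 (adjusted p = 0.0613 at day 7 and 0.0918 at day 14) or without either array of the later day (0.0518 and 0.0551, 0.0826 and 0.0932), and at day 14 also without day 0 replicate 2 (0.0807). Its day 14 call in Sa/CD99 was lost without the wt22 day 0 array (0.0506).

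SEMA4B, another membrane semaphorin, fell by day 7 in both lines. It went from 8.10 and 7.99 to 6.98 and 6.99 in SaOS-2 (-1.06, SE 0.14, adjusted p = 0.000723), and from 7.94 and 8.22 to 7.28 and 7.57 in wt22 and wt36 (-0.65, adjusted p = 0.00684). At day 14 it read 7.85 and 7.76, and 7.84 and 8.07, and was not called. Without the wt36 day 0 array or the wt22 day 7 array its change in Sa/CD99 was -0.51 and under 1.5-fold.

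Of the remaining ligands, EFNB2 fell by day 7 in SaOS-2 (-0.96, SE 0.34, adjusted p = 0.0496) and by day 14 in Sa/CD99 (-1.50, adjusted p = 0.0101). The SaOS-2 call was lost without any 1 of the 6 SaOS-2 arrays (adjusted p = 0.0721 to 0.17). The change of EFNB2 in Sa/CD99 at day 7, -0.90, missed the threshold, while its second probe set was called (-1.17, SE 0.32, adjusted p = 0.0222). SLIT3, a secreted ligand of ROBO receptors, fell by day 7 in SaOS-2 (-0.76, SE 0.14, adjusted p = 0.0031). In Sa/CD99 its day 7 change was -0.54 (adjusted p = 0.0148 in limma), under 1.5-fold. NTN4, a secreted netrin, fell by day 14 in Sa/CD99 (-0.83, SE 0.18, adjusted p = 0.00839). SEMA3C and NTNG1 fell by day 14 in Sa/CD99 (-1.20, adjusted p = 0.014, and -0.63, adjusted p = 0.0309). The SEMA3C call was lost without the wt36 day 0 array (-0.77, adjusted p = 0.0595) or the wt22 day 14 array (-0.97, adjusted p = 0.0789). That of NTNG1, whose clone values are all under the floor, was lost without wt22 at day 0 (-0.47, adjusted p = 0.162), wt22 at day 14 (adjusted p = 0.101) or wt36 at day 14 (adjusted p = 0.072). FLRT2 rose in SaOS-2 by day 7 (1.11, SE 0.26, adjusted p = 0.00877) and day 14 (0.75, adjusted p = 0.0493), and in Sa/CD99 by day 7 (0.83, adjusted p = 0.0321). The SaOS-2 day 7 call was lost without SaOS-2 day 0 replicate 1 or day 7 replicate 2 (adjusted p = 0.0525 each). That of day 14 was lost without any 1 of the 6 SaOS-2 arrays or of the clone arrays of day 0 (0.0568 to 0.217). The Sa/CD99 call was lost without any 1 SaOS-2 array of days 0 and 7 (0.0513 and 0.0516), without either clone array of day 0 (0.0725 and 0.11) or without wt22 at day 7 (0.19), and quantile-normalizing the tested probe sets by themselves left the Sa/CD99 change at 0.09 (adjusted p = 0.805).

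Among the receptors, PLXDC1 had the largest rise, 2.85 at day 7 and 3.56 at day 14 in SaOS-2 (SE 0.32, 7.23-fold and 11.8-fold, adjusted p = 0.00037 and 0.000166). Its day 0 values lie under the floor, so these folds rest on signals the filter treats as low. In Sa/CD99 it rose by 1.28 and 1.58 (adjusted p = 0.0138 and 0.00602), with no clone array above the floor. The day 7 call in Sa/CD99 was lost without the wt22 day 0 array (0.99, adjusted p = 0.0687) or the wt36 day 7 array (0.96, adjusted p = 0.0729), and when the tested probe sets were quantile-normalized by themselves the change was 0.67 (adjusted p = 0.119). The second probe set rose in SaOS-2 (1.91 and 2.42) and was not called in Sa/CD99 (0.39 and 0.41).

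PLXNA2, a plexin that serves neuropilins and class 6 semaphorins, fell in both lines on both days. It went from 8.15 and 7.92 to 7.17 and 7.21, then 7.15 and 7.01 in SaOS-2, and from 8.10 and 8.70 to 7.44 and 7.70, then 7.42 and 7.56 in wt22 and wt36. No array of days 7 or 14 reached a day 0 array of the same line. The changes were -0.85 and -0.96 in SaOS-2 and -0.83 and -0.91 in Sa/CD99 (SE 0.19, adjusted p = 0.00616 to 0.00908), and the second tested probe set fell in the same 4 comparisons. Without SaOS-2 day 0 replicate 1 the SaOS-2 calls were lost (adjusted p = 0.0591 and 0.0527), as was that of day 14 without SaOS-2 day 14 replicate 2 (0.0539). In Sa/CD99 the day 7 change was -0.53 without the wt36 day 0 array, under 1.5-fold, and missed the threshold without the wt22 day 7 array (0.0537).

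PLXNC1, the plexin of SEMA7A, rose in SaOS-2 from 5.83 and 5.67 to 6.89 and 7.00 at day 7 (1.19, SE 0.30, adjusted p = 0.0125) and 6.76 and 6.63 at day 14 (0.94, adjusted p = 0.0395). Its parental day 0 values lie under the floor. In wt22 and wt36 it read 6.43 and 6.52, 6.85 and 6.61, then 6.48 and 5.29, and was not called. Its calls in SaOS-2 were lost without any 1 of the day 0 and day 7 SaOS-2 arrays (adjusted p = 0.0525 to 0.0717 at day 7 and 0.0615 to 0.172 at day 14), and that of day 14 also without either day 14 array (0.163 and 0.122). SEMA7A itself stayed between 6.91 and 7.62.

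Without the filters, 2 of the genes not tested were also called in SaOS-2. SEMA3A, a repellent semaphorin that also acts on bone cells, rose by 0.67 at day 7 (SE 0.15, adjusted p = 0.0158, 4.36% of all genes up), from 6.31 and 6.22 to 6.93 and 6.93. PLXDC2 fell by day 14 (-1.26, SE 0.21, adjusted p = 0.00547, 2.45% of all genes down), from 6.32 and 6.34 to 5.21 and 4.93, all under the floor.

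NRP1, a neuropilin that carries semaphorin and VEGF signals, rose in Sa/CD99 by 0.85 at day 7 and 0.80 at day 14 (SE 0.24, adjusted p = 0.0243 and 0.0297). The values were 9.69 and 9.29 at day 0, 9.99 and 10.69 at day 7, and 10.00 and 10.57 at day 14 in wt22 and wt36. Both calls were lost without the wt36 array of day 0 (0.65 and 0.60, adjusted p = 0.131 and 0.13) or of the later day (0.50 and 0.52, adjusted p = 0.125 and 0.149). In SaOS-2 the changes were 0.50 and 0.47 and not called.

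ROBO2, a slit receptor, rose in Sa/CD99 by 1.55 at day 7 and 1.60 at day 14 (SE 0.33, adjusted p = 0.00683 and 0.00639). It went from 6.72 in wt22 and 5.64 in wt36 to 7.59 and 7.88, then 7.44 and 8.12. In SaOS-2, where it read 7.11 and 7.34, 7.92 and 8.13, then 7.83 and 8.01, the changes of 0.80 and 0.69 were not called in this fit. The difference between the lines in these changes was not called either. With array weights per line both SaOS-2 changes of ROBO2 were called, and with the tested probe sets quantile-normalized by themselves that of day 7 was. EPHA2, an ephrin-A receptor, fell by day 7 in both lines, from 10.99 and 10.87 to 9.69 and 9.72 in SaOS-2 (-1.23, SE 0.09, adjusted p = 8.12e-05) and from 10.68 and 10.63 to 9.77 and 9.75 in wt22 and wt36 (-0.89, adjusted p = 0.000211). These calls held in all 18 other settings run on them. At day 14 EPHA2 read 10.44 and 10.43, and 10.16 and 10.02, and its changes were under 1.5-fold.

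The clones also differed from each other. With the 3 days of each clone as its arrays, 5 of the 24 guidance genes were lower in wt22 than in wt36 and 0 were higher, or 20.8%, where 6.71% of all genes were called, 3% lower and 3.72% higher. This compares these 2 lines, not clones in general. Differences between clones are part of the spread of the Sa/CD99 group. The comparisons of lines and days take the spread of each probe set from all arrays, so clone differences also enter the SE of the SaOS-2 changes. A call with time in SaOS-2 and not in Sa/CD99, or the reverse, does not by itself show a difference between the lines.

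EPHA3 had the largest clone difference, -2.50 (SE 0.24, 5.67-fold lower in wt22, adjusted p = 0.000181). It read 4.46, 4.14 and 3.92 in wt22 and 5.98, 7.12 and 6.91 in wt36 at days 0, 7 and 14. All 3 values of wt22 lie under the floor, so this fold rests on signals the filter treats as low. The parental values, 6.38 and 6.53, 7.05 and 7.01, then 6.41 and 6.61, were nearer to those of wt36, and wt22 was below every other array. The other clone differences were smaller. FLRT3 read 7.99, 8.01 and 6.71 in wt22 and 8.47, 9.07 and 8.66 in wt36, a difference of -1.16 (SE 0.21, adjusted p = 0.00457), and its second probe set differed by -1.08. With only the 6 Sa/CD99 arrays fitted, the FLRT3 call was lost (SE 0.25, adjusted p = 0.0517 in limma). NRP2, a neuropilin, read 9.40, 8.94 and 9.56 in wt22 and 10.14, 9.88 and 9.90 in wt36 (-0.67, SE 0.10, adjusted p = 0.00199), and 3 of its 7 tested probe sets were called. PLXDC1 differed by -0.70 (SE 0.11, adjusted p = 0.00216) and SEMA3C by -0.65 (SE 0.11, adjusted p = 0.00431). Without some clone arrays 2 of these differences were under 1.5-fold, NRP2 at -0.54 without either day 7 clone array and SEMA3C at -0.53 without either day 0 clone array. Of the 6 osteoblast markers tested, 3 were higher in wt22, IBSP by 3.42, COL1A2 by 2.33 and SP7 by 0.64. ALPL (-0.26, SE 0.08), RUNX2 (0.07) and COL1A1 (0.14) were not called. Whether these marker differences bear on the guidance genes was not tested.

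**Figure D4:**
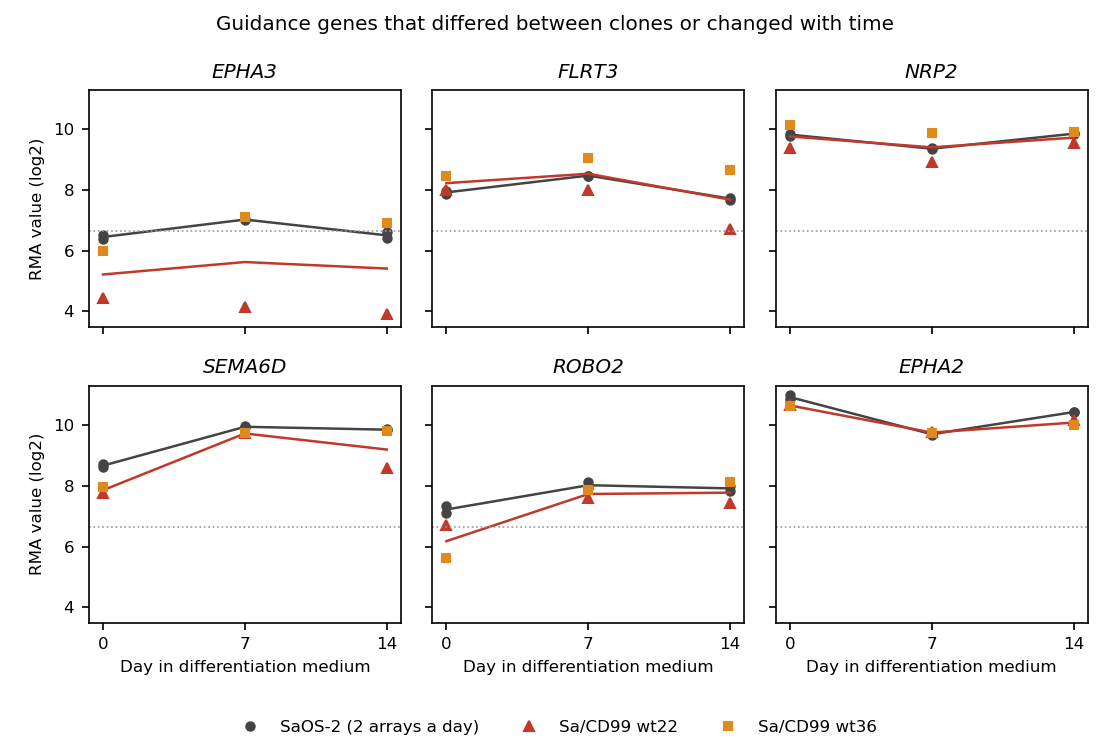
Log2 RMA value of 6 further guidance genes on each array, by day, with the symbols and signal floor (dotted, 6.64) of the plot of NTNG1 and FLRT2 by day. EPHA3 in clone wt22 (triangles, 3.92 to 4.46) lies below all other arrays, SEMA6D is higher and EPHA2 lower at day 7 than at day 0 in both lines.

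To show whether nearby genes moved as well, each called gene was set beside the 10 tested genes on each side of it in chromosome order. The neighbours of FLRT2 had a median difference between the lines of -0.13, -0.08 and -0.13 at days 0, 7 and 14, and 0 of 20 were called. Those of NTNG1 had medians of -0.03, -0.14 and -0.19, with 0 of 20 called, although 1 of them reached -3.92 at day 14 without a call. For PLXDC1 the medians were 0.04 and 0.01 at days 7 and 14, with 1 of 20 lower on each day, and for EFNB2 at day 14 the median of 19 neighbours was -0.05. EPHB4 lay among genes that were nearly all positive, with medians of 0.27, 0.32 and 0.29 and 1 of 20 negative at day 14, beside its own difference of 0.61. Likewise PLXNA2, not called between the lines, had differences of 0.36, 0.38 and 0.41 among neighbours with medians of 0.34, 0.27 and 0.26. Between the clones, 19 of the 20 neighbours of FLRT3 were negative (median -0.52, 7 called lower), whereas the medians around EPHA3, NRP2, SEMA3C and PLXDC1 were -0.01, 0.09, -0.04 and 0.04. The part of gene dosage in these differences was not tested.

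**Figure D5:**
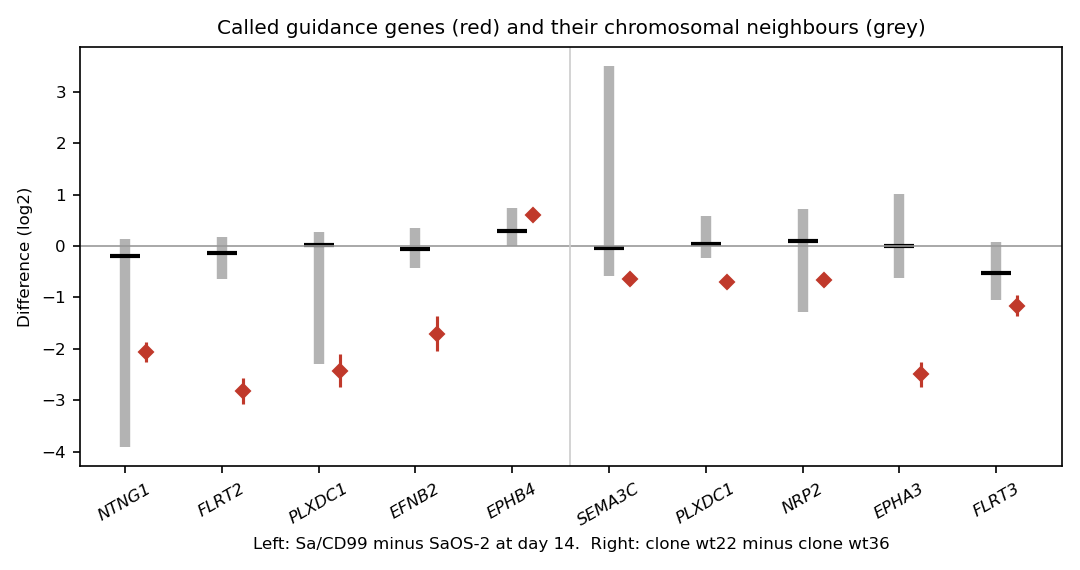
Called guidance genes (red diamonds, bars of 1 SE) and the range (grey bar) and median (black tick) of up to 20 neighbouring tested genes, for the difference between the lines at day 14 (left) and between the clones (right), on the log2 scale. EPHB4 and FLRT3 sit beside neighbours whose medians are shifted the same way, 0.29 and -0.52.

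The rest of the families were read in the same way. Of 41 other ligands and receptors, 10 were tested, and 25 of the 41, DCC among them (3.38 to 4.07), were at or below the floor on all arrays. Between the lines 0 of the 10 were called on any day, where 1.16%, 1.84% and 1.66% of all genes were. Over time EPHA5 rose by day 7 in both lines (1.08 and 0.69), and EFNA3 (-0.59 and -0.69) and FLRT1 (-1.12 and -0.94) fell. EFNA4 fell by day 7 in SaOS-2 (-0.67), and none of the 10 was called at day 14. By day 7, 1 of the 10 rose and 3 fell in SaOS-2, and 1 rose and 2 fell in Sa/CD99. Over all genes, 20.4% and 15.8% were called in these day 7 comparisons, and 14.7% and 19.7% in those of day 14. The netrin NTN1 was higher in wt22 than in wt36 by 0.59, the only call between the clones among the 10, where 6.71% of all genes were called.

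Inside the cell, guidance receptors act on the cytoskeleton through exchange factors, kinases, CRMP proteins and MICAL enzymes. Of 34 such effectors 19 were tested. Between the lines 1 of the 19 was called, where 1.16%, 1.84% and 1.66% of all genes were at days 0, 7 and 14. It was TIAM1, an exchange factor for Rac, which was lower in Sa/CD99 at day 14 (-0.76, SE 0.15, adjusted p = 0.0446). Within the lines, 2 rose and 3 fell by day 7 and 4 rose and 1 fell by day 14 in SaOS-2, and 3 rose and 3 fell by day 7 and 4 rose and 3 fell by day 14 in Sa/CD99. Over all genes tested, the shares called in these comparisons were 20.4% and 14.7% in SaOS-2 and 15.8% and 19.7% in Sa/CD99. The exchange factor VAV3 rose most (1.82 and 1.71 in SaOS-2, 1.55 and 1.44 in Sa/CD99). Its values ran from 5.05 to 6.94 and exceeded the floor on 6 arrays, so these changes rest partly on low signals. MICAL2, which oxidizes actin, fell in all 4 comparisons (-0.66 to -0.82). FYN, a kinase downstream of several guidance receptors, rose by day 14 in both lines (0.83 and 1.12).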

How the data were processed

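Gene expression in 12 samples was measured on Affymetrix HG-U133 Plus 2.0 arrays from total RNA. Per the submitters' processing notes, the authors made the deposited log2 signals with affy and RMA, whose versions and genome build are not given in the sources used here. This method normalizes all arrays together, so only relative differences remain. Of 54675 probe sets, 62 controls were left out. Probe sets with a signal of 100 or less on at least 75% of arrays were removed (18677 passed), then those with an interquartile range at or below the median, 0.219 (12894 tested). Names came from the platform annotation, updated by gene ID to GRCh38.p14 symbols. A gene was read on its probe set with the highest mean among those naming it alone, and 6644 genes were tested.

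Groups followed the labels. A mean for each of the 6 groups was fitted to all arrays with lmFit and eBayes of limma (version 3.58.1, under R version 4.3.3; 6 residual and 3.18 prior degrees of freedom, median SE 0.14), and the clone comparison added 1 term. Calls needed a Benjamini-Hochberg adjusted p of at most 0.05 and 1.5-fold, and "rose", "fell", "higher" and "lower" refer to calls. The number of arrays limits the precision, and since the origin of the replicates is not labelled, the p-values reflect no more than how far these samples lie apart, possibly for technical reasons. The clone number marks 1 line across days, and clone deviations correlated between days (r = 0.58, 0.32 and 0.63), whereas the parental numbers share nothing stated (r = -0.04, 0.24 and -0.05). Fits with the replicate number as a block, without filters, with other normalization, with array weights, with the compared groups alone and without each array were alternatives. The genes, lists, tests and alternatives were chosen with earlier results of these data known. All listed genes are accounted for. Values per array are given for genes called between lines and for the 3 largest called changes in each direction with time or clone. The fit was tested on simulated data.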

Additional observations from a re-analysis of the deposited data

Results flagged for a closer look

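The change of PLXDC1 with time differed between the lines on its second probe set. The interaction of line and day at day 14 was -2.01 (SE 0.18, adjusted p = 0.0167 in limma), in that the parental arrays rose by 2.42 and the arrays labelled Sa/CD99 changed by 0.41, which was not called. This is 1 probe set, and its values in Sa/CD99 (4.88 to 5.41) lie below the signal floor. On the probe set that stands for the gene the interaction was -1.98 (SE 0.45, adjusted p = 0.926).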

How the results depend on the processing

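The 46 called changes of guidance genes kept their direction in all 798 values over 19 alternative settings (no filters, quantile normalization, array weights, compared groups alone, blocks, 1 array left out), and 128 of these values missed the threshold. Fitting only the arrays of the groups compared, which leaves 4 arrays a fit, called 1, 0 and 1 guidance genes between the lines at days 0, 7 and 14, and 2 and 0 in Sa/CD99 at days 7 and 14. In these fits FLRT2 was called at day 0 and NTNG1 at day 14, while NTNG1 at days 0 and 7 (adjusted p = 0.0586 and 0.109) and FLRT2 at days 7 and 14 (0.0736 and 0.133) were not. In the other settings both genes were called at days 7 and 14. Without filters, 3 were called between the lines at day 14. That setting also lost EFNB2 at day 7 and PLXNC1 and FLRT2 at day 14 in SaOS-2 (adjusted p = 0.0773, 0.0712 and 0.0908 in limma). In Sa/CD99 at day 14 it lost NRP1 and NTNG1 (adjusted p = 0.0576 and 0.0619). Array weights per line called 5 in Sa/CD99 at day 14, without SEMA3C, NRP1, NTNG1 and NTN4 (adjusted p = 0.0541, 0.0594, 0.114 and 0.0692), and also lost PLXNA2 and FLRT2 at day 7 and SEMA3C between the clones. In SaOS-2, array weights added SEMA3C and ROBO2 at days 7 and 14, and quantile normalization added ROBO2 at day 7. The replicate block called 2 in the day 14 interaction, and the block of the clones alone, chosen after the data were seen, called 1 and 2 in the interactions of days 7 and 14. These blocks also called SEMA3C as higher in SaOS-2 at days 7 and 14 (0.78 and 0.73), the block of the clones alone called EFNB2 as lower in Sa/CD99 at day 7 (-0.90), and they changed no other call of a guidance gene. Leaving out 1 array at a time gave 0 to 4, 2 to 4 and 2 to 6 calls between the lines, 4 to 11 and 1 to 6 over time in SaOS-2, 4 to 10 and 8 to 11 in Sa/CD99, 0 to 0 and 0 to 1 in the interactions, and 4 to 7 between the clones. Some single arrays moved a time count by over 1.5 times: without SaOS-2 day 0 replicate 1 it was 4 and 1 in SaOS-2, and without wt36 at day 0 it was 4 in Sa/CD99 at day 7. Other arrays acted alike on the day 14 calls in SaOS-2. Those of SEMA6D, PLXNA2, PLXNC1 and FLRT2 were lost without SaOS-2 day 14 replicate 2. Without SaOS-2 day 0 replicate 2 or day 14 replicate 1, those of SEMA6D, PLXNC1 and FLRT2 were lost. The cause of these shifts was not tested. Low signal limits what could be tested, as 10 of 39 genes were left out for it.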
